A study of Mus musculus with 6 samples.

Results

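The mitochondrial ribosomal protein genes are the 78 rows of the deposited count table whose symbol is Mrpl or Mrps followed by a number and at most 1 letter, out of 56674 rows. They comprise 49 Mrpl and 29 Mrps symbols, each present on 1 row, and lie on 17 chromosomes. All 78 were among the 18284 genes with enough counts to test. RNA came from livers of male C57BL/6 mice, an inbred laboratory strain, reared for 71 weeks, of which 3 samples had normal chow (control) and 3 had chow with PP-MP, polypropylene microplastic. The labels name no genetic change, no particle dose or size and no batch. Their treatment field reads PS-MP for every sample, control included, so the groups were taken from the titles and the treatment characteristic. Nothing in the labels says that the samples of a group are separate animals, so the p-values tell only how far these samples spread, which may be technical. The stated purpose was to assess what prolonged exposure does to hepatic gene expression.

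Mitochondria carry their own ribosome, which translates the few membrane proteins of the respiratory chain that are encoded by mitochondrial DNA. Its ribosomal RNAs come from the mitochondrial genome, whereas all of its proteins are made from nuclear genes, translated in the cytosol and imported, so building it needs both genomes. Some of the proteins have relatives in bacterial ribosomes and others exist only in mitochondria. In the liver the products of this ribosome sustain the oxidative metabolism on which fatty acid oxidation, gluconeogenesis and urea synthesis depend. Symbols do not always tell where a protein sits. Mrps18a and Mrps30 encode proteins found in the large subunit, and Mrps36 encodes a component of the oxoglutarate dehydrogenase complex and no ribosomal protein. By position in the structure the list held 51 large subunit genes, 26 small subunit genes and Mrps36.

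RefSeq start regions (250 bases before to 50 after each transcription start, build GRCm38.p6, which is not the GRCm39 build of the counts) were found by symbol for 69 of the 78 genes, 75 regions in all. They were searched on both strands for the letters GCGCATGC, a core of the site of NRF1, CCGGAAG, a core of the site of ETS factors such as GABPA, and AAGATGGCG, a core of the site of YY1. The ETS core ends in the letters that open the YY1 core, so those motifs can overlap, and the NRF1 core can overlap its own reverse complement. These factors are known for their place in the control of nuclear genes for mitochondrial proteins. At least 1 motif was found for 36 of the 69 genes (52.2%), against 24.5% of the genes tested that had a start region and 13.6% of all genes in the RefSeq table. The NRF1 core was found for 8 genes (11.6%, against 5.37% of genes tested), the ETS core for 26 (37.7%, against 18.2%) and the YY1 core for 8 (11.6%, against 3.16%). The median GC content was 58.7% in the members' regions and 59.7% in those of the genes tested. Within 100 bases of the start lay 28 of 31 ETS matches, 7 of 8 YY1 matches and 10 of 14 NRF1 matches. The regions reach only 250 bases before and 50 after the start, and positions in other genes were not compared. A match is a run of letters and not a measured binding site.

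The start regions below are shown because Mrpl9 and Mrpl39, a bacterial-type and a mitochondria-specific protein of the large subunit, are 2 of the 3 genes of smallest p and both hold the NRF1 core on each strand, because Mrps18a, Mrps18b and Mrps18c are the 3 relatives of 1 bacterial protein, and because Mrps11 and Mrpl46 start on opposite strands, 412 bases apart in GENCODE M21, and their RefSeq start regions overlap. Mrpl45, the member of smallest p, held none of the motifs searched for. Mrpl9 and Mrpl39 were picked by their values here, and a link between motif and fold change was not tested. Capitals mark the motif letters and each run reads 5′ to 3′ along the gene's strand. In GRCm38.p6 the regions are chr3:94443086-94443385 (plus strand) for Mrpl9, chr16:84735195-84735494 (minus strand) for Mrpl39, chr17:46110754-46111053 (plus strand) for Mrps18a, chr17:35916391-35916690 (minus strand) for Mrps18b, chr5:100798509-100798808 (plus strand) for Mrps18c and chr7:78782881-78783180 (plus strand) for Mrps11.
Mrpl9: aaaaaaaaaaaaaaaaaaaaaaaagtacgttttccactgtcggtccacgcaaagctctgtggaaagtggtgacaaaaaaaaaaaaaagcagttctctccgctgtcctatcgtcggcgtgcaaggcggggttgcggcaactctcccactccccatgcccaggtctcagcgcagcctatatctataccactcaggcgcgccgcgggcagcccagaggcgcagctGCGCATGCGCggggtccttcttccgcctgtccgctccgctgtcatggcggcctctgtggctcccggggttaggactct
Mrpl39: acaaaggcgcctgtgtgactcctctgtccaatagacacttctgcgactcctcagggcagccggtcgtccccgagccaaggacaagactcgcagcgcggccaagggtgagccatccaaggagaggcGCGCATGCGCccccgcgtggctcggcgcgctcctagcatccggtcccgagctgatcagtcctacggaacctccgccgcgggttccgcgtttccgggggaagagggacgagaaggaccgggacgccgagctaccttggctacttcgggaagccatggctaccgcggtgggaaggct
Mrps18a: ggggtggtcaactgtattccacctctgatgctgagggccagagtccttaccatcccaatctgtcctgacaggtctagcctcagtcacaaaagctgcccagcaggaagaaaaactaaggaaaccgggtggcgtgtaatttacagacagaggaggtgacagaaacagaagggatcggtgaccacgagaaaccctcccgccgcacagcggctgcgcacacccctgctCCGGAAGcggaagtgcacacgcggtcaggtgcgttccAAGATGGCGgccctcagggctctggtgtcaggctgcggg
Mrps18b: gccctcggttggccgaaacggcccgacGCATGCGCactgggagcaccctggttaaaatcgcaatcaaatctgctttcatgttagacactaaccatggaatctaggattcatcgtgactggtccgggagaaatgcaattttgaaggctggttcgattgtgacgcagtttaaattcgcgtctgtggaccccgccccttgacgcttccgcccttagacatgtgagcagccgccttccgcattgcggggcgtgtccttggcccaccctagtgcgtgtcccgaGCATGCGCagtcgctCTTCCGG
Mrps18c: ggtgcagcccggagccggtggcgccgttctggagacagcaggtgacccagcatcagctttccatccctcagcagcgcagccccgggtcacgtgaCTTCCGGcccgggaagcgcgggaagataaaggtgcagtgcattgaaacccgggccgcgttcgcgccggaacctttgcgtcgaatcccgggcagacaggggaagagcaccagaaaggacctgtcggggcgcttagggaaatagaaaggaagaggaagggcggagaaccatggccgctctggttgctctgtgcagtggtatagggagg
Mrps11: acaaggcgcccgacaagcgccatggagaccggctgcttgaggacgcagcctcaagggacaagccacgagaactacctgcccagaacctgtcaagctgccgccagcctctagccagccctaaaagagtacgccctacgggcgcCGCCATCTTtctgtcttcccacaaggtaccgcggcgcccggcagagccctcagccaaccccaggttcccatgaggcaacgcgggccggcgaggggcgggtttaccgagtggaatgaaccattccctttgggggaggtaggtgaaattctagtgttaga
Counted from the first transcribed base, the NRF1 letters began at -28 in Mrpl9 and at -125 in Mrpl39, each overlapping a match on the other strand at -26 and -123. In Mrps18a the ETS letters began at -26 and the YY1 letters at 12. Mrps18b held NRF1 letters at -223 and 29 and ETS letters at 44, Mrps18c held ETS letters at -156, and Mrps11 held YY1 letters at -108.

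Many of these genes share a start region with a neighbour. Of the 78 genes, 33 (42.3%) had a protein-coding gene on the opposite strand whose start lay within 1000 bases, against 10.9% of 21924 protein-coding genes in GENCODE M21 (GRCm38). The latter include genes without enough counts to test here, and the share among the genes tested was not computed. In 21 of the 33 the starts were at most 200 bases apart, and the closest were Mrpl54 and Apba3, at 26. The partners included genes of mitochondrial function: Ndufs6 beside Mrpl36 and Ndufb5 beside Mrpl47 (subunits of respiratory complex I), Sars2 beside Mrps12 (the mitochondrial seryl-tRNA synthetase), Twnk beside Mrpl43 (the mitochondrial DNA helicase) and Ptcd2 beside Mrps27. Mrpl46, of the large subunit, and Mrps11, of the small one, faced each other. Exons of 33 members overlapped another gene model, 25 of them on the opposite strand only. The strand setting of the authors' counting is not given in the sources used here, so reads of overlapping genes may have been counted for either. Among the genes described below, such overlaps with protein-coding models concern, besides the pair just named, Mrpl14 (Tmem63b), Mrpl18 (Tcp1), Mrpl19 (Gcfc2), Mrpl47 (Ndufb5 and Actl6a), Mrpl49 (Syvn1), Mrpl9 (Oaz3), Mrps7 (Gga3 and Mif4gd), Mrps25 (Nr2c2) and Mrps30 (B430218F22Rik) on the opposite strand and Mrps6 (Slc5a3 and Gm49711) and Mrps24 (Urgcp) on the same strand, and Mrps34 on both (Nme3 and Mapk8ip3). The 45 members whose exons overlapped no other model had a median log2 fold change of -0.19 between the diets, and the 33 with a facing gene one of -0.20.

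Libraries held 68357478 to 112566641 counts, of which 116761 to 249694 fell on the 78 genes, and the smallest count of any member in any library was 260. The members took 0.213%, 0.171% and 0.222% of the counts in control 1 to 3, against 0.181%, 0.215% and 0.228% in PP-MP 1 to 3, with 95% Wilson intervals of at most 0.00104 percentage points to either side (counting error only). The groups overlapped, with control 2 and PP-MP 1 the lowest. The share of 18S ribosomal RNA did not overlap between the diets, at 2.92%, 11.2% and 1.15% of the counts for control 1 to 3 and 0.655% to 0.750% in PP-MP, with control 2 far above the rest. PP-MP 1 stood apart by neutrophil and Kupffer cell markers, and it also held the highest sums of stellate and cholangiocyte markers. Of 6 neutrophil markers 4 could be tested, and they summed to 18.3 CPM (counts scaled to library size with TMM factors) in PP-MP 1, to 2.80 and 2.40 in PP-MP 2 and 3 and to 0.708 to 0.992 in control. The others, the defining markers Ly6g and Camp, had 0 counts in every control library. In PP-MP 1 to 3 Ly6g had 10, 3 and 0 counts and Camp 58, 0 and 0. All 4 tested markers were fitted higher, 3 at an unadjusted p under 0.05 (8.05% of all genes, higher), with 0 past the edgeR threshold and 1 called by DESeq2 (4.25% of all genes). The 6 Kupffer cell markers summed to 381, 236 and 110 CPM in the PP-MP libraries 1 to 3, against 91.9 to 126 in control, with 6 of 6 fitted higher, 4 at an unadjusted p under 0.05, 0 past the edgeR threshold and 2 called by DESeq2. The 5 lymphocyte markers went the other way in their fitted values, 5 of 5 lower (47.4% of all genes) with a median log2 fold change of -0.80. Of them 2 had an unadjusted p under 0.05 (5.81% of all genes, lower), 0 passed the edgeR threshold and 0 were called by DESeq2. Their levels were low, summing to 7.69, 12.7 and 5.55 CPM for control 1 to 3 and to 4.98, 6.004 and 4.001 CPM for PP-MP 1 to 3, with control 2 the highest. Of 6 hepatocyte markers 4 were fitted higher and 2 lower, 1 at an unadjusted p under 0.05 (Apoa1, log2 fold change 1.77), with 0 past the edgeR threshold and 1 called by DESeq2; Tat was at 0.57 and Ttr at -0.48. Alb, the most abundant of them, was at 51849 ± 4534 CPM on normal chow and 52699 ± 5504 CPM on PP-MP chow (SD, n = 3). The 5 stellate markers summed to 394, 246 and 305 CPM in PP-MP 1 to 3, against 263 to 284 in control. The 4 cholangiocyte markers summed to 13.4, 4.68 and 3.69 CPM, against 4.48 to 8.19. The 5 endothelial markers summed to 102, 102 and 57.7 CPM, against 68.6 to 83.2. In each of these lists 0 genes had an unadjusted p under 0.05 with edgeR and 0 were called by DESeq2. The part of these differences in the values below was not tested. Leaving a library out, as below, removes all of its differences at once and cannot tell them apart. In bulk tissue, fewer cells of a type and less RNA per cell cannot be told apart.

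Among themselves the 78 genes spanned a wide range of levels. Per kilobase of merged exons, the highest was Mrpl12, at 77.6 ± 11.8 RPKM in control and 67.0 ± 11.97 RPKM in PP-MP (SD, n = 3), and the lowest was Mrpl3, at 1.47 ± 0.466 and 1.29 ± 0.198 RPKM, a 52.4-fold range of mean levels. Mrpl12 forms the flexible stalk of the large subunit, where translation factors bind. Mrpl14 followed (67.5 ± 10.8 and 47.5 ± 11.5 RPKM), then Mrpl34, and Mrps21 led the small subunit at 48.9 ± 4.87 and 38.5 ± 5.88 RPKM, ahead of Mrps24 (32.8 ± 5.11 and 26.6 ± 4.68 RPKM). At the low end of the small subunit were Mrps35 (2.70 ± 0.220 and 2.26 ± 0.347 RPKM) and Mrps25 (2.76 ± 0.324 and 2.39 ± 0.671 RPKM), and in the large subunit Mrpl19 (2.40 ± 0.245 and 2.16 ± 0.277 RPKM). The median level was 10.1 RPKM over large and 8.64 RPKM over small subunit genes. These levels depend on the exon lengths used. With the longest transcript in place of all exons, 8 of the 10 highest genes were the same. On that scale Mrpl14 (84.6 RPKM) and Mrpl12 (84.1 RPKM) changed places at the top, Mrpl3 was again the lowest of all, and Mrps25 was the lowest of the small subunit in place of Mrps35.

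**Figure D1:**
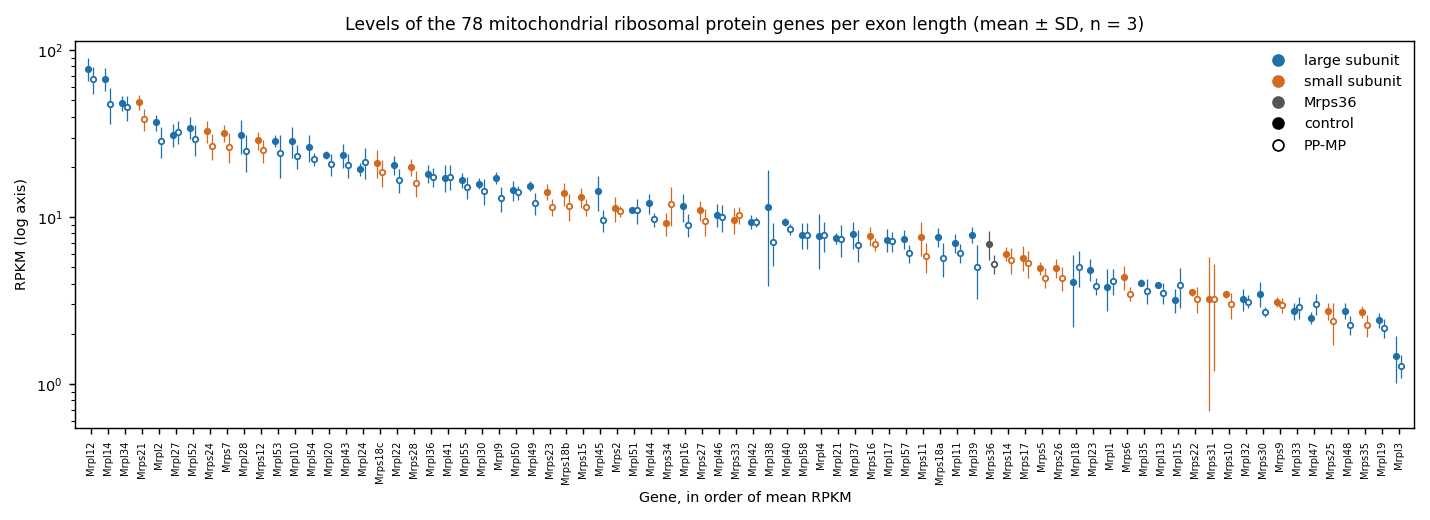
Mean RPKM (log axis) of each of the 78 genes in control (filled) and PP-MP (open), with SD over 3 libraries, in order of the mean level and coloured by subunit. Levels run from Mrpl12 at 77.6 RPKM in control down to Mrpl3 at 1.47 RPKM, and Mrps21 is the highest gene of the small subunit.

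No mitochondrial ribosomal protein gene passed the test for a difference between the diets. With edgeR's quasi-likelihood test, adjusted over all genes, 0 of the 78 passed (smallest adjusted p = 0.33, Mrpl45), where 2 of all genes tested did (0.0109%), 1 higher (0.00547%) and 1 lower (0.00547%). DESeq2 also called 0 of the 78, against 4.25% of all genes, and limma-voom 0. At an unadjusted p under 0.05 edgeR gave 3 members, Mrpl45, Mrpl9 and Mrpl39, all lower in PP-MP, and 0 higher, against 5.81% of all genes lower and 8.05% higher. Scaled by library totals it gave 2 members, both higher, against 18.7% of all genes in either direction. Leaving out 1 library moved the count from 0 (without control 1 or without control 3) to 18 (without control 2). Of these 18, 17 were lower. Without control 2, 20.8% of all genes had such a p in either direction, and the share lower alone was not computed. The fold changes were small: 74 of the 78 lay within 0.5 of zero on the log2 scale, and the full range ran from -0.69 (Mrpl38) to 0.39 (Mrps34). The share of all genes within 0.5 was not computed. The interquartile range was -0.30 to -0.05 over the members and -0.24 to 0.44 over all genes tested. For 72 members the 95% interval of the fold change stayed within 2-fold in either direction, against 46.3% of all genes. The exceptions were Mrpl14, Mrpl18, Mrpl38, Mrpl39, Mrpl45 and Mrps31. A change smaller than these intervals was not detectable with 3 libraries per group.

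**Figure D2:**
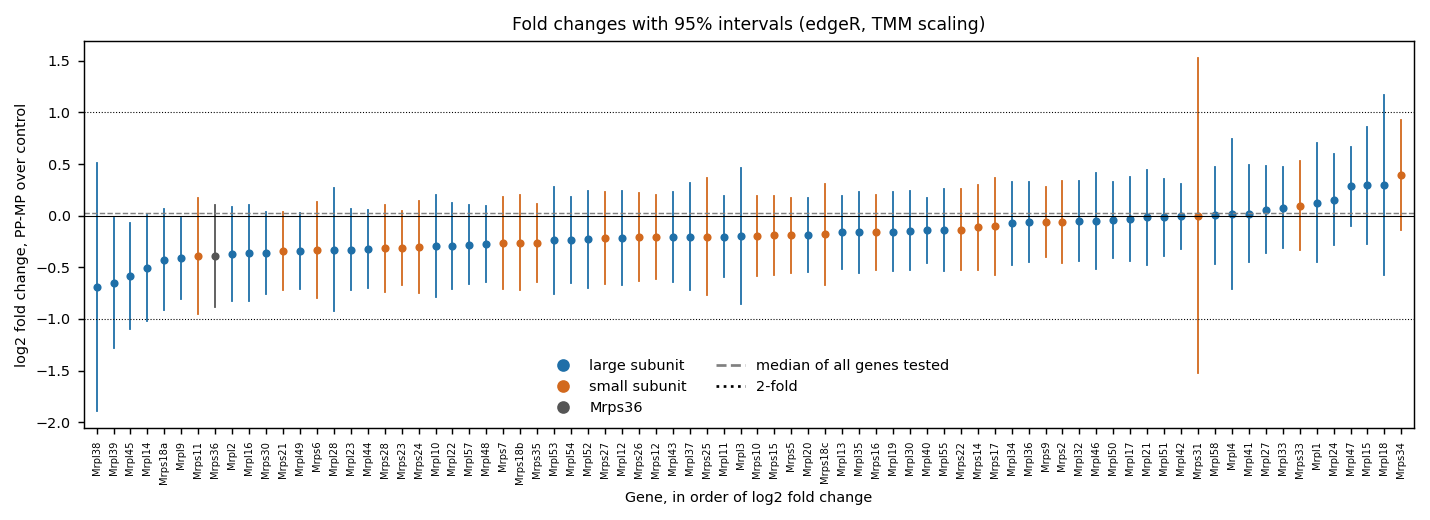
Log2 fold change of PP-MP over control for each of the 78 genes with its 95% interval, coloured by subunit, with dotted lines at 2-fold and a dashed line at the median of all genes tested. The intervals of 75 genes include 0, those of Mrpl45, Mrpl9 and Mrpl39 lie just below it, and the widest belong to Mrps31 and Mrpl38.

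Most of the small differences pointed the same way once the libraries were scaled. With TMM factors 65 members had a fitted value below 0, against 47.4% of all genes, and the median log2 fold change was -0.20 over the members and 0.03 over all genes tested. This direction depends on the scaling: when libraries were scaled by their totals alone, the median of the members was 0.03, with 30 below 0, while that of all genes was 0.26. Relative to the median of all genes the members stood at -0.23 with TMM factors and -0.24 with library totals. The subunit medians were -0.18 over the 51 large and -0.20 over the 26 small subunit genes, a difference that was not tested. Within a library the counts on large subunit genes were 2.34, 2.28 and 2.39 times those on small subunit genes in control 1 to 3, against 2.30, 2.33 and 2.36 times in PP-MP 1 to 3, a ratio that no scaling touches. Bacterial-type proteins had a median of -0.18 over 45 genes and mitochondria-specific ones of -0.21 over 31. All 16 bacterial-type genes of the small subunit had a fitted value below 0, between -0.39 and -0.06, against 47.4% of all genes. Of these 16, 0 had an unadjusted p under 0.05, and with library totals their median was 0.03. Below 0 were also 7 of the 10 mitochondria-specific genes of the small subunit. In the large subunit 21 of 29 bacterial-type and 19 of 21 mitochondria-specific genes were below 0. These groups were not tested against each other. By start region motif, the medians were -0.28 over the 8 genes with the NRF1 core, -0.20 over the 26 with the ETS core, -0.21 over the 8 with the YY1 core and -0.19 over the 33 with none, values that were not tested against each other.

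The libraries of a diet were not alike. Relative to each gene's control mean, the median member stood at 0.04, -0.17 and 0.12 (log2 CPM) in control 1 to 3, against -0.38, -0.21 and 0.03 in PP-MP 1 to 3. PP-MP 3 was within the range of the controls and PP-MP 2 close to control 2. PP-MP 1 held the lowest value of 54 of the 78 genes, where it held the lowest value of 22.9% of all genes tested. It held the highest value of 0 members, against 21.9% of all genes tested. Control 3 held the highest value of 36 members, against 15.7% of all genes tested. Of the members, 4 were below all 3 control values in each PP-MP library (Mrpl45, Mrpl9, Mrpl39 and Mrpl49), against 9.79% of all genes, and 1, Mrpl47, was higher in every one, against 12.2%. Without PP-MP 1 the median over the members was -0.10 with 55 below 0, and without control 3 it was -0.10 with 56 below 0. Without PP-MP 3 it was -0.31. Leaving out control 2 and PP-MP 1 together gave -0.18, with 0 members past the edgeR threshold. At an unadjusted p under 0.05 were 11 members, 9 lower and 2 higher, where 17.6% of all genes had such a p in either direction.

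**Figure D3:**
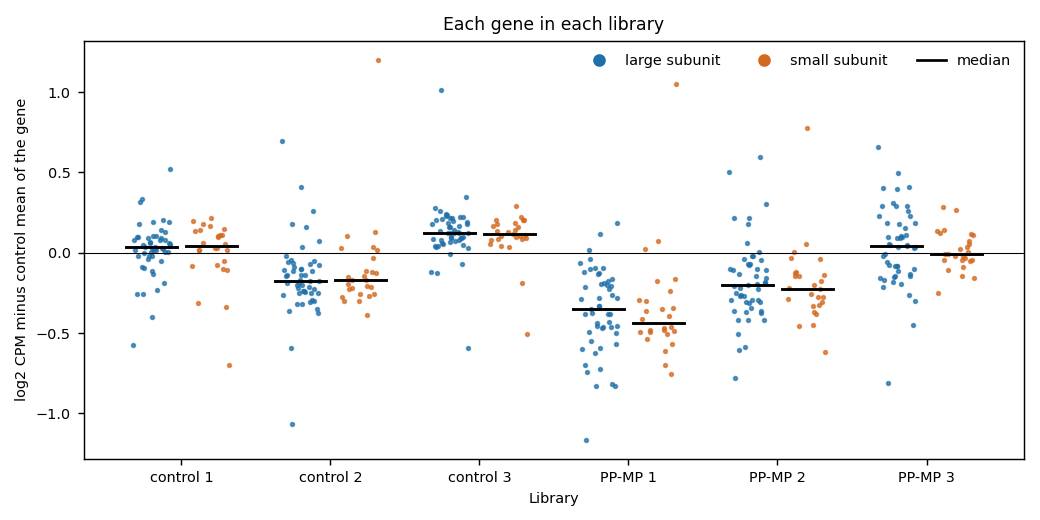
Log2 CPM of the 51 large and 26 small subunit genes in each library minus the gene's mean over the control libraries, large subunit left and small subunit right within each library, with medians as black lines (Mrps36 is left out). Medians are lowest in PP-MP 1, while PP-MP 3 sits near the control mean, and the points of the subunits lie together in every library.

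In the large subunit, Mrpl45 had the smallest p. The protein is a mitochondria-specific one at the exit of the nascent chain, where the ribosome docks to the inner membrane. Mrpl45 was at 36.5, 28.5 and 46.4 CPM in control 1, 2 and 3 and at 20.5, 27.2 and 26.7 CPM for the PP-MP replicates in the same order, with the highest PP-MP library just under control 2. The fitted log2 difference was -0.58 (SE 0.22, edgeR adjusted p = 0.33). Mrpl9, a bacterial-type protein, was at 49.9, 42.3 and 47.7 CPM on normal chow against 28.7, 36.2 and 40.2 CPM with PP-MP, a fitted log2 difference of -0.41 (SE 0.16, edgeR adjusted p = 0.35). Mrpl39 stood at 22.5, 19.1 and 18.2 CPM on normal chow against 8.86, 11.5 and 17.6 CPM with PP-MP, a fitted log2 difference of -0.65 (SE 0.26, edgeR adjusted p = 0.35), with PP-MP 3 just under the lowest control. These are the 3 members at an unadjusted p under 0.05, and Mrpl9 shares exonic positions with Oaz3 on the other strand, which averaged 0.271 CPM.

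Mrpl14, next to Mrpl12 in level, was at 62.6, 54.7 and 74.9 CPM on normal chow against 35.8, 42.3 and 57.2 CPM with PP-MP, where PP-MP 3 overlapped the controls (log2 fold change -0.51, SE 0.21, edgeR adjusted p = 0.36). Mrpl49 was at 29.2, 26.8 and 30.6 CPM on normal chow against 19.0, 23.5 and 25.8 CPM with PP-MP (log2 fold change -0.34, SE 0.15, edgeR adjusted p = 0.39), without overlap. Mrps30, in the large subunit despite its symbol, was at 26.4, 18.7 and 24.5 CPM on normal chow against 16.6, 18.5 and 19.1 CPM with PP-MP (log2 fold change -0.36, SE 0.17, edgeR adjusted p = 0.40), and control 2 lay among the PP-MP values. Mrpl12, the most abundant message of the set, was at 122.96, 99.1 and 135 CPM on normal chow against 83.6, 104 and 120 CPM with PP-MP (log2 fold change -0.21, SE 0.19, edgeR adjusted p = 0.64). Mrpl58, which has the fold of a release factor and can free stalled chains, was at 28.3, 20.7 and 28.9 CPM on normal chow against 22.7, 24.0 and 31.4 CPM with PP-MP. Its group means were 26.0 ± 4.55 CPM on normal chow and 26.0 ± 4.69 CPM on PP-MP chow (SD, n = 3), with an interval of the fold change from -0.46 to 0.47 on the log2 scale.

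In the small subunit 0 members reached an unadjusted p under 0.05. Mrps21, a bacterial-type protein and its most abundant message per length, was at 37.6, 32.1 and 38.8 CPM on normal chow against 25.6, 26.3 and 33.5 CPM with PP-MP, with PP-MP 3 above control 2 (log2 fold change -0.35, SE 0.16, edgeR adjusted p = 0.40). Mrps23, a mitochondria-specific protein, was at 22.6, 19.7 and 24.4 CPM on normal chow against 16.0, 17.6 and 20.04 CPM with PP-MP (log2 fold change -0.31, SE 0.15, edgeR adjusted p = 0.41). Both pairs of groups overlapped through control 2 and PP-MP 3 alone. Mrps34, which belongs to the mitochondria-specific set, had the highest fitted value of all members and stood at 21.8, 15.7 and 19.2 CPM on normal chow against 19.8, 32.2 and 22.6 CPM with PP-MP, with PP-MP 2 alone well above the rest (log2 fold change 0.39, SE 0.22, edgeR adjusted p = 0.47). Its exons overlap Nme3 on the same strand and Mapk8ip3 on the other, so its counts are uncertain. Mrps36, the dehydrogenase component, was at 9.63, 6.82 and 9.86 CPM on normal chow against 5.98, 6.37 and 7.72 CPM with PP-MP (log2 fold change -0.39, SE 0.21, edgeR adjusted p = 0.45), and rows named as its pseudogenes held at most 37 counts in a library.

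The small subunit genes given next, Mrps28, Mrps11, Mrps6, Mrps24, Mrps35 and Mrps25, had edgeR adjusted p from 0.47 to 0.72. Mrps28 was at 14.7, 14.4 and 17.7 CPM on normal chow against 11.1, 11.4 and 15.05 CPM with PP-MP (log2 fold change -0.32, SE 0.18), and Mrps11, a bacterial-type protein, at 17.4, 12.4 and 19.9 CPM on normal chow against 10.04, 12.6 and 15.3 CPM with PP-MP (log2 fold change -0.39, SE 0.24). Mrps6, the least abundant of these by CPM, was at 7.62, 5.47 and 6.998 CPM on normal chow against 4.72, 5.70 and 5.58 CPM with PP-MP (log2 fold change -0.33, SE 0.20). In these 3 genes control 2 lay at or below the highest PP-MP library, while control 1 and control 3 were above it, except that PP-MP 3 exceeded control 1 for Mrps28. Mrps24 was at 51.4, 39.5 and 53.4 CPM on normal chow against 33.6, 36.7 and 46.7 CPM with PP-MP (log2 fold change -0.30, SE 0.19), and shares exonic positions with Urgcp on the same strand. Mrps35 was at 23.6, 21.3 and 25.1 CPM on normal chow against 16.6, 19.2 and 22.6 CPM with PP-MP (log2 fold change -0.26, SE 0.16). Mrps25 was at 20.02, 18.5 and 15.8 CPM on normal chow against 10.7, 17.5 and 19.0 CPM with PP-MP (log2 fold change -0.20, SE 0.24), with PP-MP 1 alone below the controls. In the large subunit the genes of lowest level per length overlapped between diets. Mrpl19 was at 13.9, 11.6 and 13.8 CPM on normal chow against 11.2, 10.7 and 13.5 CPM with PP-MP (log2 fold change -0.15, SE 0.16). Mrpl3 was at 11.9, 6.25 and 11.3 CPM on normal chow against 9.55, 7.07 and 9.08 CPM with PP-MP (log2 fold change -0.20, SE 0.28), with control 2 the lowest library.

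The 3 relatives of the bacterial ribosomal protein bS18, encoded by separate genes, sit at different places: Mrps18c at the bacterial position, Mrps18b elsewhere in the small subunit and Mrps18a in the large subunit. Mrps18a and Mrps18b were therefore classed with the mitochondria-specific proteins. Mrps18a was at 30.5, 23.9 and 29.97 CPM on normal chow against 15.9, 21.7 and 25.3 CPM with PP-MP (log2 fold change -0.42, SE 0.21, edgeR adjusted p = 0.41). Mrps18b was at 29.99, 24.1 and 33.1 CPM on normal chow against 19.4, 25.5 and 27.9 CPM with PP-MP (log2 fold change -0.26, SE 0.19, edgeR adjusted p = 0.57). Mrps18c was at 17.8, 24.5 and 25.8 CPM on normal chow against 17.7, 18.1 and 24.3 CPM with PP-MP (log2 fold change -0.18, SE 0.20, edgeR adjusted p = 0.71). All 3 overlapped between diets and each had its lowest value in PP-MP 1. Per length the order of their control levels was Mrps18c at 21.1 ± 4.03 RPKM, Mrps18b at 13.9 ± 2.19 RPKM and Mrps18a at 7.62 ± 1.0001 RPKM (SD, n = 3).

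A few members varied far more between libraries of the same diet than the rest. They were chosen after their values were seen. The SD of log2 CPM within a group, pooled over the groups, had a median of 0.212 over the members and 0.355 over all genes tested, and it exceeded 0.5 for 3 members, Mrps31 (0.957), Mrpl38 (0.788) and Mrpl18 (0.529), against 6238 of the 18284 genes. Mrps31, a mitochondria-specific protein of the small subunit, was at 5.41, 20.2 and 6.20 CPM on normal chow against 18.2, 5.74 and 7.90 CPM with PP-MP. Control 2 and PP-MP 1 stood far above the others, and the group means were equal (10.6 ± 8.33 and 10.6 ± 6.65 CPM). Mrpl38 was at 25.7, 11.9 and 50.2 CPM on normal chow against 24.2, 16.3 and 14.1 CPM with PP-MP, a 4.22-fold range within control. Mrpl18, a bacterial-type protein of the large subunit, was at 3.58, 8.66 and 4.91 CPM on normal chow against 5.11, 7.56 and 8.43 CPM with PP-MP. Mrpl4, at 27.4, 20.2 and 12.7 CPM on normal chow against 21.8, 23.7 and 15.6 CPM with PP-MP, was lowest in control 3 and PP-MP 3.

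**Figure D4:**
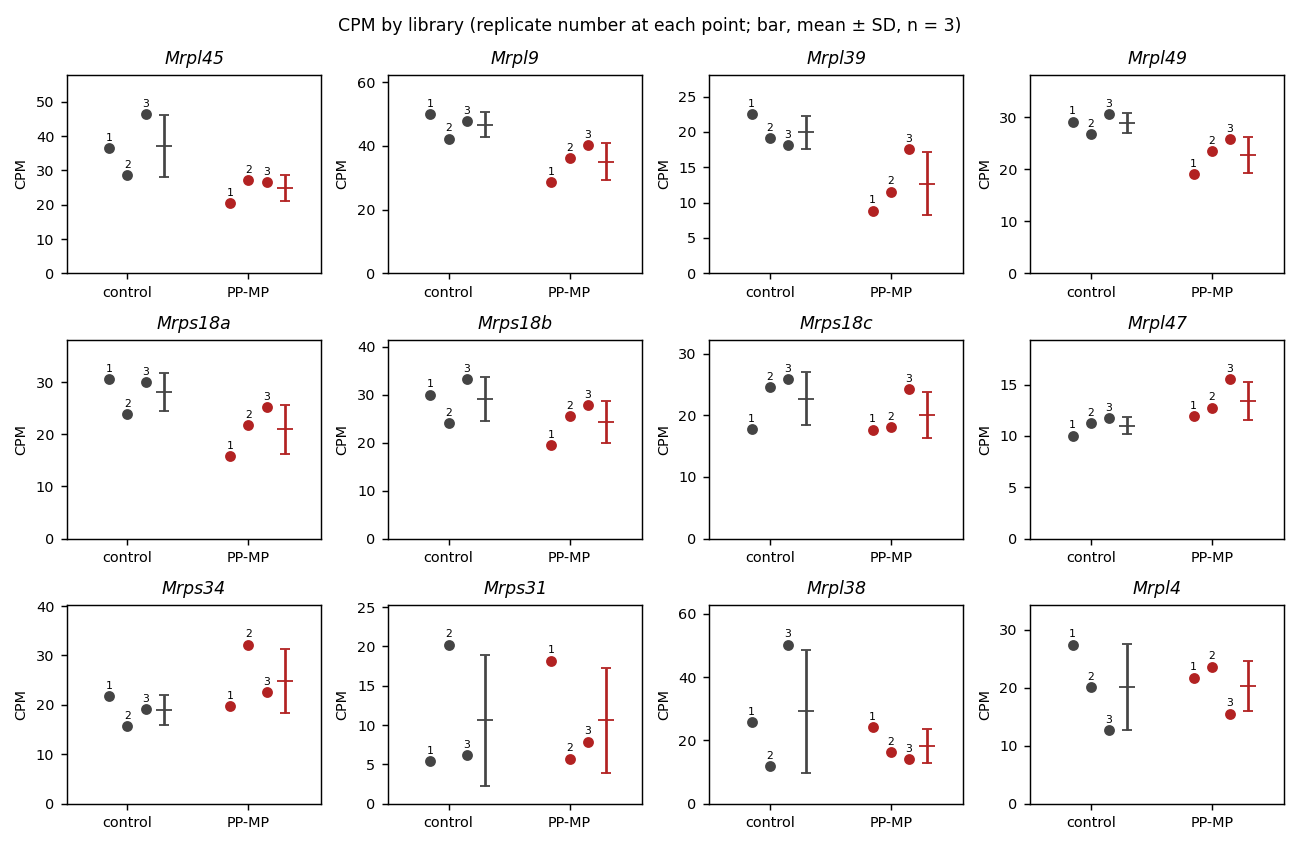
CPM of 12 members in each library (linear axes from 0, replicate number at each point, bar for mean ± SD of 3 libraries). Mrpl45, Mrpl9, Mrpl39 and Mrpl49 do not overlap between diets, Mrpl47 lies higher in every PP-MP library, and Mrps31 and Mrpl38 spread widely within a diet.

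Values of facing genes are given side by side. Mrpl46 and Mrps11, the facing pair of members, were at 14.6 ± 2.25 and 14.1 ± 2.59 CPM (Mrpl46) and at 16.6 ± 3.80 and 12.6 ± 2.63 CPM (Mrps11) in control and PP-MP (SD, n = 3), with log2 fold changes of -0.05 (SE 0.19) and -0.39 (SE 0.24). Their exons overlap, so reads may have been counted for either. The 30 partners outside the set that were tested had a median log2 fold change of -0.0030, 15 higher and 15 lower, with 0 past the edgeR threshold. Of these partners 2 had an unadjusted p under 0.05, both higher (8.05% of all genes), and 2 were called by DESeq2 (4.25% of all genes). The first by p were Gga3, which faces Mrps7 (0.74 against -0.26 for Mrps7), and Zfp661, which faces Mrps5 (0.80 against -0.19 for Mrps5). Mrpl47, the member that was higher in every PP-MP library, was at 10.04, 11.3 and 11.7 CPM on normal chow against 11.9, 12.8 and 15.5 CPM with PP-MP (log2 fold change 0.28, SE 0.16, edgeR adjusted p = 0.47), and its partner Ndufb5 had a log2 fold change of -0.17.

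The other parts of mitochondrial translation were described from lists of genes by textbook role. Among 5 subunits under other symbols and the inserting factor Oxa1l, 0 of 6 passed the edgeR threshold, 0 reached an unadjusted p under 0.05 and 0 were called by DESeq2, with a median log2 fold change of -0.14. The first by p were Aurkaip1 (-0.35) and Gadd45gip1 (-0.31). Of 27 assembly factors 0 passed, 2 had an unadjusted p under 0.05, both lower (5.81% of all genes were lower at such a p), and the median was -0.17. These were Nsun4, a methyltransferase of the ribosomal RNA, at 15.9 ± 1.29 CPM on normal chow and 11.3 ± 1.69 CPM on PP-MP chow (log2 fold change -0.49, edgeR adjusted p = 0.30), and Noa1, a GTPase of assembly, at 9.70 ± 1.003 and 7.02 ± 1.04 CPM (-0.47, edgeR adjusted p = 0.34; SD, n = 3). Of 16 translation factors 0 passed and 1 had an unadjusted p under 0.05, the elongation factor Tufm, at 79.9, 56.6 and 79.5 CPM on normal chow against 39.6, 57.8 and 54.8 CPM with PP-MP (log2 fold change -0.51, edgeR adjusted p = 0.36). Gfm1, another elongation factor, was next (-0.39). The median of this list was -0.13. DESeq2 called 0 in both lists. For the mitochondrial transcription list the median was 0.00 over 13 genes, with 0 past the threshold and the terminator-like factors Mterf1a (log2 fold change 0.78) and Mterf2 (0.62) first by p. With edgeR 2 of the 13 had an unadjusted p under 0.05, both higher (8.05% of all genes were higher at such a p), and DESeq2 called 0. Of 9 regulators 0 passed, DESeq2 called 0 and 0 had an unadjusted p under 0.05. Nrf1 was at 5.97 ± 1.35 CPM on normal chow and 5.57 ± 0.345 CPM on PP-MP chow, Yy1 at 55.3 ± 6.19 and 49.9 ± 4.95 CPM, and Gabpa at 27.7 ± 14.0 and 35.5 ± 0.320 CPM, with control 1 low (SD, n = 3). Ppargc1a, a coactivator of mitochondrial biogenesis, was at 4.23, 9.04 and 6.998 CPM on normal chow against 14.9, 8.73 and 8.81 CPM with PP-MP (log2 fold change 0.68, edgeR adjusted p = 0.43), and Gabpb1 had a log2 fold change of 0.33.

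Of 17 mitochondrial aminoacyl-tRNA synthetases, which charge the transfer RNAs, 0 passed with edgeR and 1 with DESeq2 (4.25% of all genes). With edgeR 1 was higher and 2 lower at an unadjusted p under 0.05 (8.05% and 5.81% of all genes). Their median log2 fold change was -0.11. Lars2 stood apart from all of them, at 2729, 7259 and 1070 CPM on normal chow against 475, 495 and 574 CPM with PP-MP (log2 fold change -2.84, edgeR adjusted p = 0.21), where the other 16 synthetases together summed to 178 to 262 CPM. Its order over the libraries was that of the 18S ribosomal RNA share, which was 2.92%, 11.2% and 1.15% for control 1 to 3 and 0.655%, 0.707% and 0.750% for PP-MP 1 to 3. Whether reads of ribosomal RNA were counted for Lars2 was not tested.

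The ribosomal RNAs of the mitochondrial ribosome were measured from poly(A)-selected RNA and varied widely. The small subunit RNA mt-Rnr1 was at 3225, 8046 and 3404 CPM on normal chow against 4073, 1864 and 2900 CPM with PP-MP, and the large subunit RNA mt-Rnr2 at 1949, 11174 and 3678 CPM and 5132, 3548 and 6131 CPM. Control 2, the library with the most 18S ribosomal RNA, was highest for both, the diets overlapped, and the log2 fold changes were -0.73 (SE 0.45) for mt-Rnr1 and -0.18 (SE 0.62) for mt-Rnr2. The 13 mitochondrial messages, the templates of this ribosome, had a median log2 fold change of -0.41 and the 80 nuclear respiratory chain genes tested one of -0.32 (76 of 80 below 0, against 47.4% of all genes), against -0.20 for the ribosomal proteins and 0.01 for 85 cytosolic ribosomal protein genes. Of the 80, 0 passed with edgeR and 0 with DESeq2 (4.25% of all genes), and 9 were lower and 1 higher at an unadjusted p under 0.05 (5.81% and 8.05% of all genes). Of the 13 mitochondrial messages 12 were fitted lower, the lowest at -3.40, and 7 lay below all controls in each PP-MP library (9.79% of all genes), while 0 passed with edgeR, 1 had an unadjusted p under 0.05 (lower) and DESeq2 called 1. First by p were mt-Co1 (-0.69) and mt-Nd1 (-0.49) among these, Ndufa3 (-0.77) and Ndufa12 (-0.47) in the respiratory chain list and Rpl22l1 (0.49) and Rps27l (-0.40) among cytosolic ribosomal proteins, of which 0 passed with edgeR, 1 had an unadjusted p under 0.05 (higher) and DESeq2 called 0. Scaled by library totals, the 4 medians were -0.18, -0.10, 0.03 and 0.24. Per count on nuclear respiratory chain genes, the members had 0.171, 0.177 and 0.176 counts in control 1 to 3, against 0.211, 0.190 and 0.192 in PP-MP 1 to 3, without overlap and independent of scaling. In PP-MP 1, 2 and 3 the median ribosomal protein gene stood at -0.38, -0.21 and 0.03 relative to its control mean and the median respiratory chain gene at -0.62, -0.33 and -0.06 (log2 CPM). In control 1 to 3 the median respiratory chain gene stood at 0.05, -0.20 and 0.13, so PP-MP 3 lay within the control range.

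**Figure D5:**
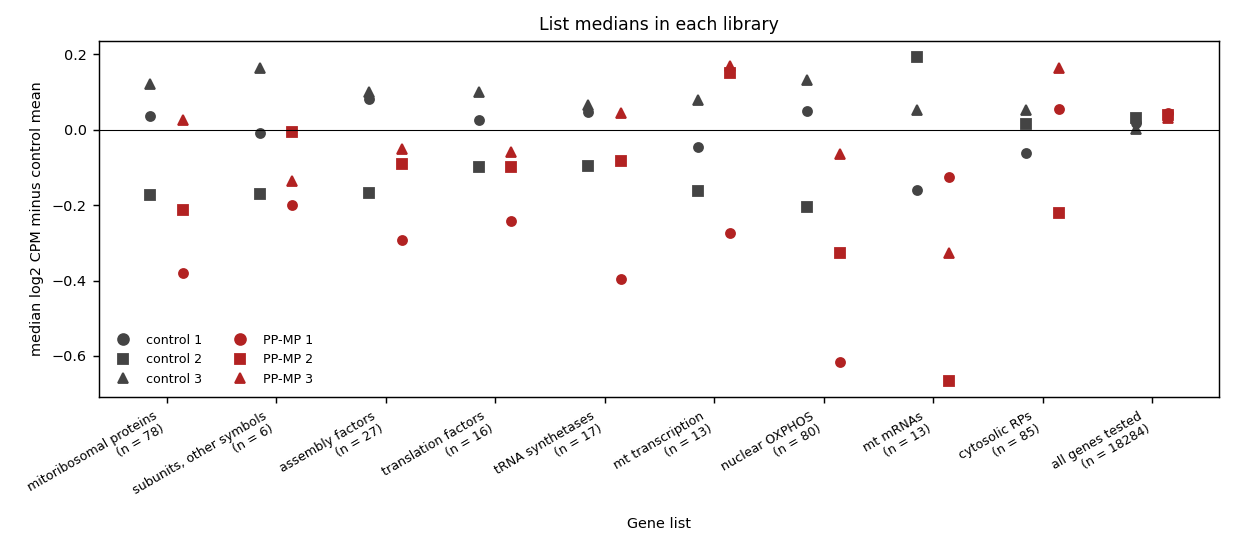
Median over each gene list of log2 CPM minus the gene's control mean, 1 point per library (marker shape, replicate; colour, diet), with the number of genes tested under each name. The ribosomal protein medians of PP-MP range from -0.38 to 0.03 and overlap those of control. The nuclear OXPHOS (respiratory chain) medians are -0.62, -0.33 and -0.06 in PP-MP 1 to 3. In control 1 to 3 they are 0.05, -0.20 and 0.13, so PP-MP 3 lies within the control range.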

How the data were processed

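Poly(A) RNA of 6 mouse liver samples was sequenced from directional libraries, per the labels' protocols. The authors deposited raw read counts per gene symbol; the 6 per-sample files equal their columns of the series table. Per the submitters' processing notes, bcl2fastq was used and the build was GRCm39. The aligner, counter and annotation were not given in the sources used here. Members and gene lists were chosen with earlier results of these data known. Genes passing filterByExpr were scaled by TMM and tested with edgeR 4.0.16 (robust quasi-likelihood F test, R 4.3.3, two-sided, Benjamini-Hochberg adjustment over 18284 genes, threshold 0.05). Standard errors and 95% intervals come from that fit. Respiratory chain and cytosolic ribosomal protein lists were taken by symbol patterns written after the counts had been seen. RPKM is CPM per kilobase of merged GENCODE M21 exons. The start region motifs were chosen after the counts had been seen. Alternatives used DESeq2 1.42.0, limma 3.58.1, other scalings and filters, a replicate block, and left-out libraries. No paired analysis entered the main test, since the labels do not pair the numbers. No libraries within a group were duplicates (chi-square per degree of freedom 154 to 928). The fit was tested on simulated data. Members given per library are, in each subunit, the 6 of smallest p, the 2 of highest and 2 of lowest RPKM, plus Mrps18a, Mrps18b, Mrps18c, Mrps30, Mrps36, Mrpl12 and Mrpl58; others named were chosen after their values were seen. Of each related list the 2 genes of smallest p are named, except 1 gene that is not reported here. Tables and figures used Python 3.11.15, pandas 2.3.3 and matplotlib 3.10.9.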

Additional observations from a re-analysis of the deposited data

How the results depend on the processing

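The count of members past the edgeR threshold was 0 under every alternative run, a threshold of 0.1 and every left-out library included. Over all genes the count was 2, and it was 1 with library totals, 1 with limma-voom, 777 with DESeq2, 0 with the replicate block and 0 to 92 when 1 library was left out. The 92 came without control 2, where 18 members had an unadjusted p under 0.05 (17 lower, 1 higher, against 20.8% of all genes in either direction). Over the left-out libraries 0 to 18 members had such a p. With the replicate block the members' median was -0.20. Same-numbered samples correlated at -0.07, -0.09 and 0.06 in their deviations, and 2 of 6 libraries correlated best with their own number. With 3 libraries per group these correlations cannot settle whether the numbers pair samples. The numbers were not taken to pair samples because the labels do not pair them.

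The median over the members turned to 0.0273 with library totals (0.0417 for the large and 0.0273 for the small subunit) and ranged from -0.31 to -0.0989 over the left-out libraries, the weakest without PP-MP 1. Of 345 values of 23 named members under the alternatives, 13 changed sign, in 6 genes. Many of these members were named for their small p, so the count does not stand for the whole set. Over all members, 35 changed sign with library totals, 14 without PP-MP 1 and 13 without control 3. With library totals Mrpl12 was at 0.0117, Mrpl19 at 0.0701, Mrpl3 at 0.0198, Mrps18c at 0.0498 and Mrps25 at 0.0249. Over the left-out libraries Mrps25 ranged from -0.361 to 0.0107 (without PP-MP 1) and Mrpl58 from -0.155 to 0.108, with -0.122 without control 2. Without control 2 and PP-MP 1, a setting chosen after seeing the data, Mrps25 was at 0.0286 and Mrpl58 at -0.0468. Mrpl58 was at -0.0181 with DESeq2 size factors, -0.0182 with the DESeq2 test and -0.000804 with limma-voom. The cause of these changes was not tested. With 3 libraries per group, the members' 95% intervals had a median half-width of 0.42 (log2).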
